A study of Mus musculus with 8 samples.

Results

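The genes described here are those of the mitogen-activated protein (MAP) kinase cascade and of the dual-specificity phosphatases (DUSPs), in the livers of mice that lacked the kinase TAK1 in liver parenchymal cells. The members were all genes on the array whose symbol starts with Mapk, Map2k, Map3k, Map4k or Dusp followed directly by a digit, except Map3k7, the gene of TAK1 itself. The rule used names only and found 69 of 19560 genes, measured by 897 probe sets, with 1 to 37 and a median of 12 per gene. It also took 3 genes under old symbols that begin with Map3k7, now named Tab1, Tab2 and Tab3, which encode the partners of TAK1. The other members were 4 MAP4 kinases, 14 MAP3 kinases, 7 MAP2 kinases, 12 MAP kinases, 5 scaffold or binding proteins, 10 MAP kinase phosphatases and 14 atypical DUSPs.

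MAP kinases are the last kinases of a relay. MAP4 kinases and other inputs activate MAP3 kinases, these phosphorylate MAP2 kinases, and these phosphorylate a threonine and a tyrosine of the MAP kinases ERK, JNK, p38 and ERK5. Dual-specificity phosphatases remove both phosphates again, and several of them are themselves induced by the signal that they end. TAK1 is one of the MAP3 kinases, and in the liver it links inflammatory receptors to JNK, p38 and NF-kB, while JNK is known for its part in hepatocyte death and growth. The arrays measured transcript levels, so the phosphorylation that sets the activity of these kinases was not seen.

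Total RNA of whole liver from 8 male mice aged 6 weeks was measured with 1 array per mouse. In 4 mice, named Tak1/Casp8 here, TAK1 was deleted together with caspase 8, an initiator protease of apoptosis, in liver parenchymal cells (Tak1/Caspase8 LPC double knockout). In the other 4, named Tak1/Rip3, TAK1 was deleted in those cells and the necroptosis kinase Rip3 was knocked out (Tak1 LPC-KO/Rip3-/-). The labels limit the loss of TAK1 and caspase 8, but not that of Rip3, to liver parenchymal cells. Both groups thus lacked TAK1 in these cells, livers with intact TAK1 were not analysed here, and the sources used here do not name the promoter that drove the deletion. The comparison asks which genes respond differently to apoptotic and to necrotic signals. Each difference below is Tak1/Casp8 minus Tak1/Rip3 on the log2 scale, and its sign gives no group the role of a normal control. In whole tissue, fewer cells of a type and less RNA per cell cannot be told apart.

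Values were log2 intensities normalised with RMA by the authors, summarised as the median over the probe sets of a gene, and tested with limma over all 19560 genes. The lower quartile of the probe sets of an array, from 6.47 to 6.52, served as the mark of a dim value. The 6 hepatocyte markers had a mean level of 13.37 to 13.51 in the Tak1/Rip3 and 13.44 to 13.49 in the Tak1/Casp8 livers. Casp8 differed by -1.31 and Ripk3 by 0.98, in the direction of the labels (Ripk3 by -0.036 with its brightest probe set), while Map3k7 differed by -0.08 with a 95% interval from -0.30 to 0.14. Markers of dividing cells moved with the groups, all 9 measured being lower in the Tak1/Casp8 livers with mean levels of 7.25 to 8.51 against 9.265 to 10.12. All 7 stellate cell markers had negative differences, and 2 of them, Lrat and Reln, passed (28.6%, against 6.69% of all genes). The mean level of the 7 was 9.42 to 10.10 in the Tak1/Casp8 and 10.12 to 10.42 in the Tak1/Rip3 livers. The part of dividing or stellate cells in the results below was not tested. Tak1/Rip3 replicate 2 stood apart in the members: it held the highest or the lowest of the 8 values in 35 of 69 (50.7%), against 30.7% of all genes. Without it 6 members passed the test. Nothing in the labels says which mice were littermates, so p-values measure the spread between these mice only.

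Few members passed the test. At a limma adjusted p under 0.05, 5 of the 69 (7.25%) passed, beside a background of 6.69% of all genes. The 2 that were higher in the Tak1/Casp8 livers were the MAP3 kinase gene Map3k1 and Mapk1ip1, where the background of higher calls is 2.64%. The 3 that were lower were the MAP4 kinase gene Map4k1, the MAP2 kinase gene Map2k3 and the phosphatase gene Dusp22, where the background of lower calls is 4.05%. The values of the groups did not overlap in 12 members (17.4%), beside 14.6% of all genes. These shares lie near those of the whole array.

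The differences were also small. Only Map3k1 differed by 1.5-fold or more (1.45% of members, 5.41% of all genes). The median difference of the 69 members was 0.00 and its median size 0.11, against 0.01 and 0.14 over all genes. Of the 69, 36 were on the higher and 33 on the lower side, beside 10288 and 9272 of all genes. For 54 members (78.3%; 75.9% of all genes) the 95% interval of the difference lay wholly within 1.5-fold either way. The spread between mice was like that of other genes, with a median SD of 0.15 in the Tak1/Casp8 and 0.17 in the Tak1/Rip3 livers, against 0.17 and 0.16.

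**Figure D1:**
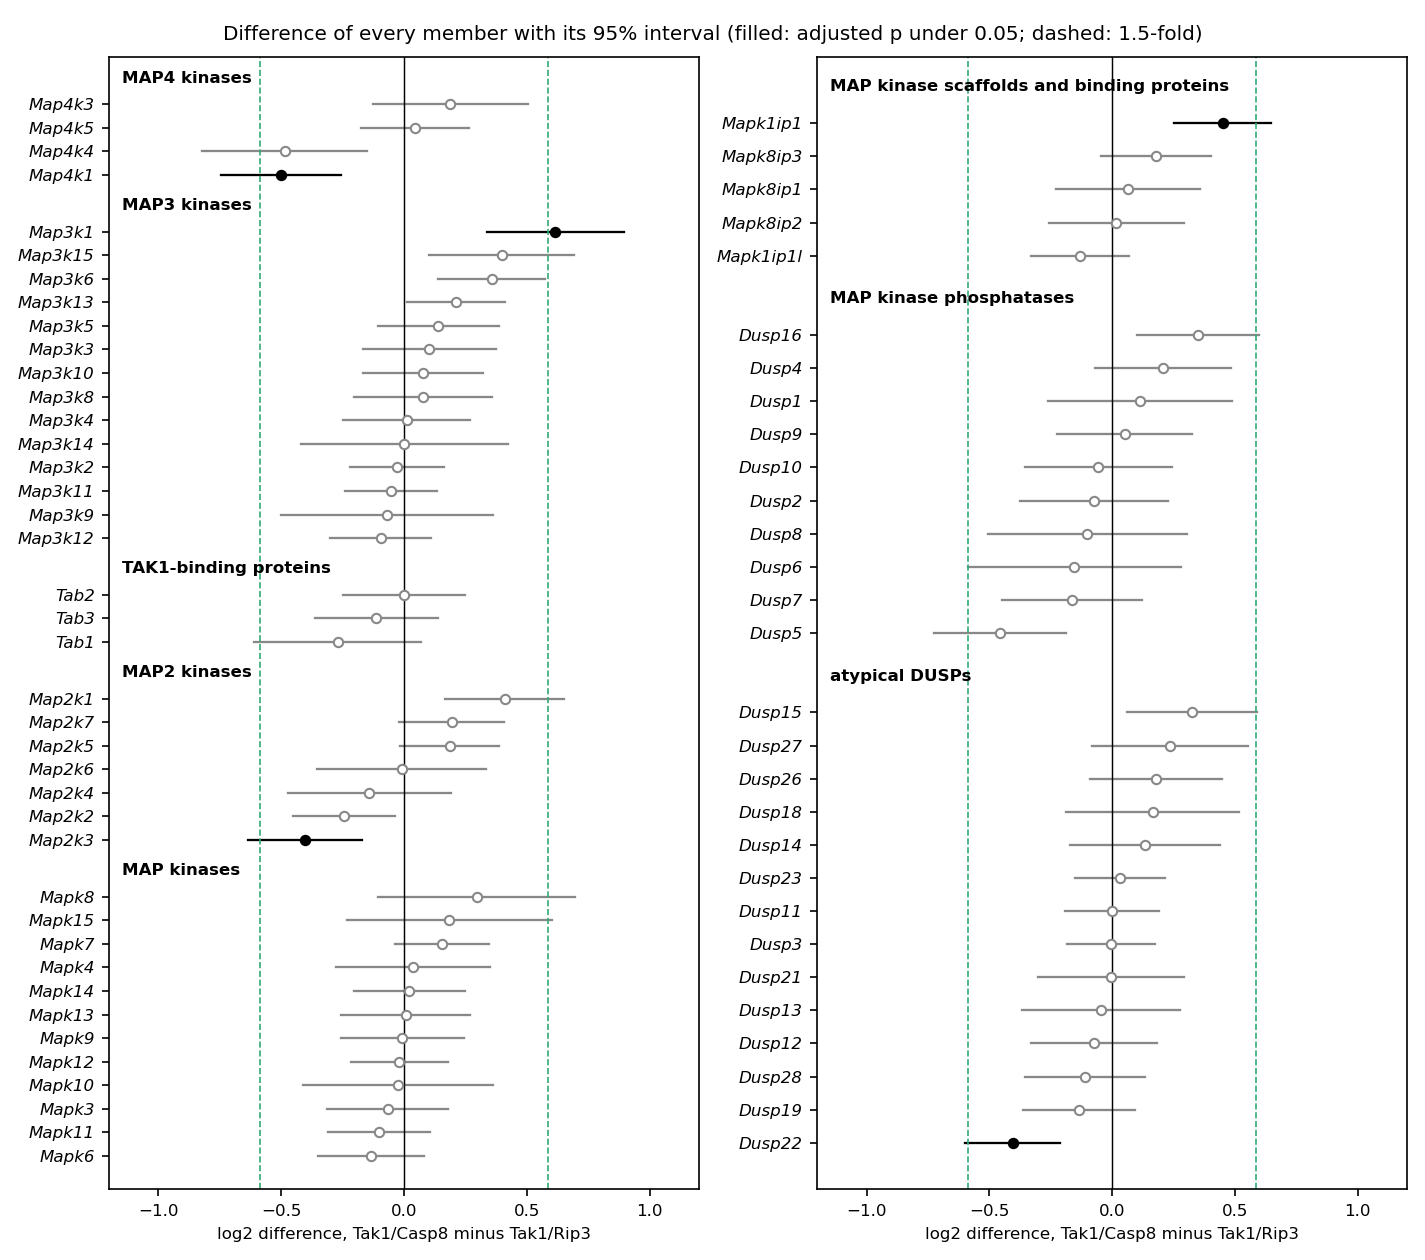
Log2 difference (Tak1/Casp8 minus Tak1/Rip3, horizontal axis) of each of the 69 members by role, with the 95% interval from limma as a line, n = 4 mice per group. Filled points mark the 5 members with an adjusted p under 0.05, dashed lines mark 1.5-fold, and only the point of Map3k1 lies beyond them.

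**Figure D2:**
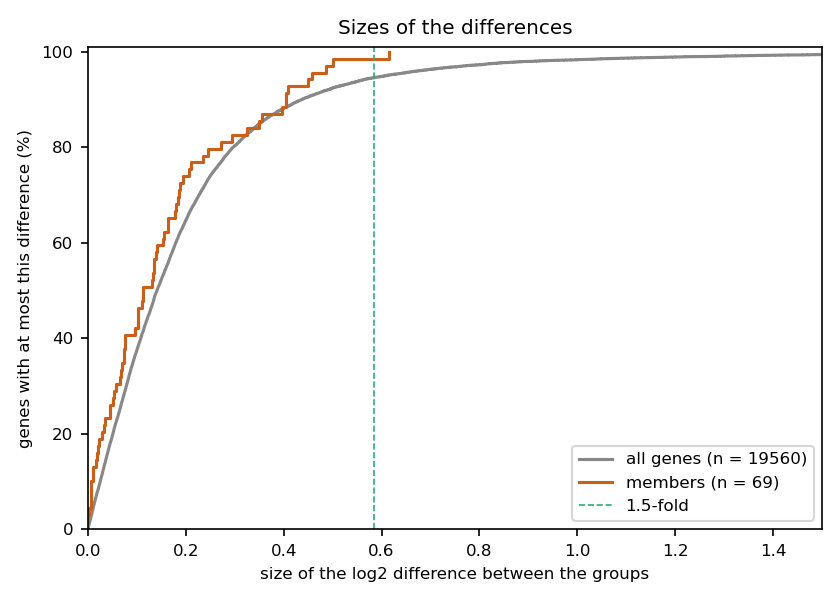
Cumulative share of genes (vertical axis, percent) whose log2 difference between the groups has at most the size on the horizontal axis, which ends at 1.5 and so leaves out the largest differences of all genes. The members (orange, n = 69) reach the top sooner than all genes (grey, n = 19560), with 1.45% of members against 5.41% of all genes at or beyond the dashed line at 1.5-fold.

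The 4 MAP4 kinases stand at the top of the relay. Map4k1 encodes HPK1, a kinase of blood cells. Its levels were 7.97, 8.02, 7.93 and 8.11 in the Tak1/Rip3 livers and 7.53, 7.26, 7.51 and 7.73 in the Tak1/Casp8 livers. All 4 Tak1/Casp8 values lay below all Tak1/Rip3 values. The gene was 1.41-fold lower (-0.50 ± 0.11 SE with 4 mice per group, limma adjusted p = 0.0242), and 25 of its 29 probe sets were on the lower side. The call was lost with the brightest probe set (-0.36, adjusted p = 0.389) and with the brighter probe sets (-0.26, 0.144). It was also lost without any 1 of 5 arrays, Tak1/Rip3 replicates 1 and 4 and Tak1/Casp8 replicates 1, 2 and 3 (0.0533 to 0.0801), where the difference was between -0.51 and -0.42.

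Since HPK1 belongs to blood cells, markers of those cells were set beside it. Of 5 B and plasma cell markers, 3 passed (60%, against 6.69% of all genes). The B cell genes Cd79a (-1.38) and Ms4a1 (-1.11) were lower and the plasma cell gene Jchain was higher (2.03). Cd79b (-0.40) and Mzb1 (0.28) did not pass. The mean level of the 5 pools genes of both directions. It was 6.56 to 6.88 in the Tak1/Casp8 and 6.67 to 6.91 in the Tak1/Rip3 livers. None of 7 T and NK cell markers passed, but all 7 differences were negative, with mean levels of 6.18 to 6.36 against 6.36 to 6.47. None of 7 macrophage markers passed (10.26 to 10.76 against 10.18 to 10.78). Of 6 neutrophil markers only Csf3r passed (16.7%, against 6.69% of all genes), with a higher value. The part of these cells in the Map4k1 result was not tested.

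Map4k4 encodes HGK, a kinase that feeds into JNK. Its values were 9.74, 9.03, 9.52 and 9.57 in the Tak1/Rip3 livers and 9.19, 8.88, 8.97 and 8.87 in the Tak1/Casp8 livers. Tak1/Rip3 replicate 2 lay among the Tak1/Casp8 values, and the other 3 lay above them. The difference was -0.49 ± 0.15 SE (4 mice per group, limma adjusted p = 0.0893), with 32 of 36 probe sets on the lower side. Without Tak1/Rip3 replicate 2 it was -0.63 and passed (adjusted p = 0.0139). Map4k3 (0.19) and Map4k5 (0.05) were not called.

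Among the 14 MAP3 kinases, Map3k1 was the only call. It encodes MEKK1, which activates the MAP2 kinases of JNK and also carries a ubiquitin ligase domain. Its levels were 9.21, 9.01, 9.38 and 9.34 in the Tak1/Rip3 livers and 9.84, 9.86, 10.09 and 9.61 in the Tak1/Casp8 livers. The lowest Tak1/Casp8 value lay above the highest Tak1/Rip3 value. The gene was 1.53-fold higher (0.62 ± 0.13 SE with 4 mice per group, limma adjusted p = 0.0171, 95% interval 0.34 to 0.89). Of its 22 probe sets 21 were on the higher side, with a median of 0.56. In the RefSeq table Map3k1 overlaps the predicted gene Gm15327, and the signal of overlapping genes was not separated. The call was lost without Tak1/Rip3 replicate 1 (adjusted p = 0.0534) and with the brightest probe set (0.0723), where the difference was 0.67.

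The apoptosis signal-regulating kinases, which respond to oxidative stress, are Map3k5 (ASK1), Map3k6 (ASK2) and Map3k15 (ASK3). Map3k6 was at 7.21, 7.19, 7.27 and 7.26 in the Tak1/Rip3 livers and at 7.53, 7.75, 7.68 and 7.41 in the Tak1/Casp8 livers. The groups did not overlap, and the difference of 0.36 ± 0.10 SE (n = 4 per group) fell short of the test (limma adjusted p = 0.0579). It passed in 8 of the 18 alternative settings and was 0.02 with its brightest probe set (adjusted p = 0.976). Map3k15, dim in every mouse, also had no overlap (0.40 ± 0.13, limma adjusted p = 0.111). Map3k5 differed by 0.14, with a 95% interval from -0.11 to 0.39.

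The other MAP3 kinases were not called. Map3k13 (LZK, an activator of JNK) did not overlap between the groups but differed by only 0.21 (limma adjusted p = 0.211). Map3k8, known as TPL2, which activates MEK downstream of Toll-like receptors, differed by 0.08 with a 95% interval from -0.20 to 0.36. Map3k14, the NF-kB-inducing kinase NIK, differed by 0.00 with a wide interval from -0.42 to 0.42. The mixed-lineage kinases Map3k9, Map3k10, Map3k11 and Map3k12 ranged from -0.10 to 0.08. Map3k2 and Map3k3, which act on the ERK5 branch, differed by -0.03 and 0.10, and Map3k4 by 0.01. Over the 14 genes the median was 0.08, with 10 on the higher side. Over all 19560 genes the median was 0.01, with 10288 on the higher side. The TAK1 partners were not called either: Tab1, an activator of TAK1, differed by -0.27 (limma adjusted p = 0.356), and the ubiquitin-binding adaptors Tab2 and Tab3 by 0.00 and -0.11. Tab1 passed with the mean over probe sets (-0.38, adjusted p = 0.0380) and when probe sets were centred first (-0.38, 0.0372).

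**Figure D3:**
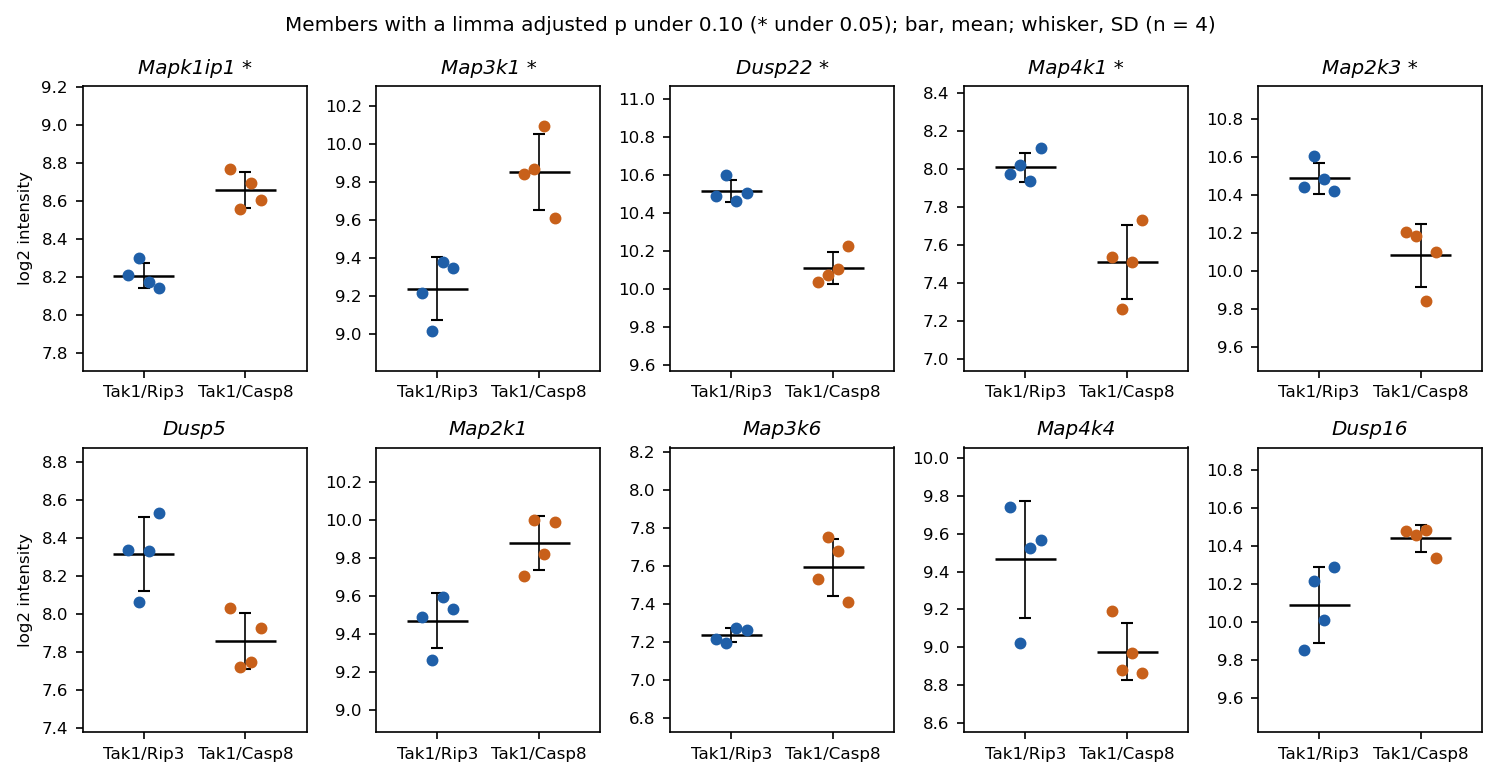
Log2 intensity (vertical axis, each panel spanning 1.5 units) of the 10 members with a limma adjusted p under 0.10 in each of the 4 Tak1/Rip3 (blue) and 4 Tak1/Casp8 (orange) livers, with the mean as a bar and the SD as a whisker. Stars mark the 5 members under 0.05, and Map4k4 is the only panel in which the groups overlap.

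Among the 7 MAP2 kinases, the pair that serves ERK stood on opposite sides. MEK1 (Map2k1) and MEK2 (Map2k2) both phosphorylate ERK. Map2k1 was at 9.49, 9.26, 9.60 and 9.53 in the Tak1/Rip3 livers and at 9.71, 10.00, 9.82 and 9.99 in the Tak1/Casp8 livers. Map2k2 was at 9.75, 9.81, 9.62 and 9.75 in the Tak1/Rip3 livers and at 9.40, 9.61, 9.39 and 9.55 in the Tak1/Casp8 livers. Both genes thus had no overlap between the groups, Map2k1 towards higher and Map2k2 towards lower values. Neither passed: Map2k1 differed by 0.41 ± 0.11 SE (4 mice per group, limma adjusted p = 0.0536) and Map2k2 by -0.25 ± 0.09 (limma adjusted p = 0.161). All 12 probe sets of Map2k1 were on the higher and 11 of 12 of Map2k2 on the lower side. Map2k1 passed with 5 of the 18 alternative settings, among them quantile normalisation (adjusted p = 0.0436).

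MKK3 (Map2k3) and MKK6 (Map2k6) phosphorylate p38. Map2k3 was at 10.44, 10.60, 10.48 and 10.42 in the Tak1/Rip3 livers and at 10.20, 10.18, 9.84 and 10.10 in the Tak1/Casp8 livers, with no overlap. It was called lower (-0.40 ± 0.10 SE with 4 mice per group, limma adjusted p = 0.0459), but this value is larger than most of its parts. The median over its 13 single probe sets was a difference of -0.15, and 3 of them were on the higher side. With the mean over probe sets the gene differed by -0.17 (adjusted p = 0.175), with the brightest probe set by -0.025 (0.928), and with probe sets centred before the median by -0.17 (0.201). The call was also lost without any single array (0.0606 to 0.104). Map2k6 differed by -0.01. Of the kinases that act on JNK, MKK4 (Map2k4), which can also act on p38, differed by -0.14 and MKK7 (Map2k7) by 0.19, and for ERK5, MEK5 (Map2k5) by 0.18; none was called.

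None of the 12 measured MAP kinases passed the limma test, beside 6.69% of all genes, and none had an unadjusted p under 0.05, beside 21.1%. Their differences ran from -0.13 (Mapk6) to 0.30 (Mapk8), with a median size of 0.05, and in 10 of the 12 (83.3%, against 75.9% of all genes) the 95% interval stayed within 1.5-fold. ERK1 (Mapk3) differed by -0.07, with an interval from -0.31 to 0.18. The p38 gene Mapk14 differed by 0.02 (-0.20 to 0.25) and JNK2 (Mapk9) by -0.01 (-0.26 to 0.24). The other p38 genes Mapk11, Mapk12 and Mapk13 differed by -0.10, -0.02 and 0.01. For all of these kinases the interval excludes a 1.5-fold difference of transcript levels between the groups.

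JNK1 (Mapk8) was measured less exactly. It was at 8.86, 8.17, 9.15 and 8.77 in the Tak1/Rip3 livers and at 8.89, 9.02, 9.06 and 9.16 in the Tak1/Casp8 livers. The low value of Tak1/Rip3 replicate 2 set most of its difference of 0.30 (limma adjusted p = 0.394, 95% interval -0.10 to 0.70), which was 0.11 without that array. Mapk15, an atypical MAP kinase, was the other one with a wide interval (-0.23 to 0.60). Mapk7, the ERK5 gene, differed by 0.15 (limma adjusted p = 0.352). Mapk4 and Mapk10, the latter the JNK gene of nervous tissue, were dim in both groups.

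Proteins that bind MAP kinases gave the call that depended least on the settings. The levels of Mapk1ip1 were 8.21, 8.30, 8.17 and 8.14 in the Tak1/Rip3 livers and 8.77, 8.56, 8.70 and 8.61 in the Tak1/Casp8 livers. The groups lay apart with little spread within each. The gene was 1.37-fold higher (0.45 ± 0.09 SE with 4 mice per group, limma adjusted p = 0.0150), and its 4 probe sets differed by 0.245 to 0.480. It passed in 17 of the 18 alternative settings, the exception being the fit without Tak1/Rip3 replicate 4 (adjusted p = 0.0536). Mapk1ip1l, a gene of like name, differed by -0.13. The JNK scaffolds JIP1, JIP2 and JIP3 (Mapk8ip1, Mapk8ip2 and Mapk8ip3), which hold the kinases of the relay together, differed by 0.06, 0.02 and 0.18 and were not called.

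None of the 10 MAP kinase phosphatases passed the test in limma, and 2 (20%, against 21.1% of all genes) had an unadjusted p under 0.05. The interval lay within 1.5-fold in 7 of the 10 (70.0%, against 75.9%). These shares are close to the background. Dusp5, a nuclear phosphatase that acts on ERK, came closest. It was at 8.34, 8.06, 8.33 and 8.53 in the Tak1/Rip3 livers and at 8.03, 7.72, 7.75 and 7.93 in the Tak1/Casp8 livers. The groups did not overlap, the difference was -0.46 ± 0.12 SE (4 mice per group, limma adjusted p just above the threshold of 0.05), and all 5 probe sets were on the lower side. It passed in 6 of the 18 alternative settings and was smallest with the brightest probe set (-0.14, adjusted p = 0.497).

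The remaining phosphatases of this class lay on both sides of 0. Dusp16, which acts on JNK and p38, was at 9.85, 10.22, 10.01 and 10.29 in the Tak1/Rip3 livers and at 10.48, 10.46, 10.49 and 10.34 in the Tak1/Casp8 livers, again with no overlap (0.35 ± 0.11 SE with 4 mice per group, limma adjusted p = 0.0983). Dusp10, with the same targets, differed by -0.06. Dusp1, the inducible nuclear phosphatase, differed by 0.11 with an interval from -0.26 to 0.49. Dusp6, the cytoplasmic ERK phosphatase whose transcript follows ERK activity in many cells, differed by -0.16 (limma adjusted p = 0.708). Its values overlapped widely, at 10.27, 9.75, 10.10 and 10.60 against 10.15, 10.24, 9.57 and 10.13. Dusp4 differed by 0.21, Dusp7 by -0.16, Dusp8 by -0.10, Dusp2 by -0.07 and Dusp9 by 0.05.

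Feedback phosphatases are induced through elements in their promoters, so the 250 bases before the start of each member were searched in RefSeq sequence (GRCm38.p6), where 53 of the 69 members have an entry. Searched were the AP-1 motif TGANTCA, the cAMP response element (CRE) TGACGTCA and the SRF binding motif known as the CArG box. Each reads the same on both strands, and none of these overlaps another in the windows shown. AP-1 motifs were in 7.82% of all 27025 genes and in 4 members (Dusp13, Map2k6, Map2k7 and Map3k10), CREs in 1.77% and in 3 (Dusp1, Dusp8 and Mapk10), and CArG boxes in 1.62% and in Dusp5 alone. The windows of Dusp5, the phosphatase nearest to a call, and of Dusp1, the best known inducible one, are shown with these matches in capitals. The Dusp5 window holds 2 CArG boxes side by side, starting 82 and 72 bases before the start of the gene, and the Dusp1 window holds 1 CRE starting 143 bases before it. A match describes the letters only.
Dusp5, chr19:53528895-53529144, plus strand: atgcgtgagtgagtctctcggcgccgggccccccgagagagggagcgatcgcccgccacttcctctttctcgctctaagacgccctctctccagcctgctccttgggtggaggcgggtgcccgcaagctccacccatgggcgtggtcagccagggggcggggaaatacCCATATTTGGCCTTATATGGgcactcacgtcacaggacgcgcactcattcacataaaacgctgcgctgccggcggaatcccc
Dusp1, chr17:26508473-26508722, minus strand: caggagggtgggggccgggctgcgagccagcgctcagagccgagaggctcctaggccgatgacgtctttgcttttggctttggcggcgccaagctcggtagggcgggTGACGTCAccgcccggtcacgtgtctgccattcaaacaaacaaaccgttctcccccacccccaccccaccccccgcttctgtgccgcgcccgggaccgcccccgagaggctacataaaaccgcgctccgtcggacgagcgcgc

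Of the 14 atypical DUSPs, which lack the MAP kinase-binding domain, Dusp22 was the only call. Dusp22 encodes a phosphatase known for its action on the JNK pathway and on T cell receptor signalling. Its levels were 10.49, 10.60, 10.46 and 10.51 in the Tak1/Rip3 livers and 10.04, 10.07, 10.10 and 10.22 in the Tak1/Casp8 livers, without overlap. It was 1.32-fold lower (-0.40 ± 0.09 SE with 4 mice per group, limma adjusted p = 0.0210), and all 8 probe sets were on the lower side, by -0.72 to -0.26. The call was kept with each other normalisation and summary of the probe sets. It was lost without any 1 of 5 arrays, Tak1/Rip3 replicates 1 and 4 and Tak1/Casp8 replicates 1, 2 and 3 (adjusted p = 0.0540 to 0.0667). The part of T and NK cells, whose markers are given beside Map4k1, in the Dusp22 result was not tested. Of the others, Dusp15 (0.33, limma adjusted p = 0.145) and Dusp27 (0.24) had the largest values, and both were dim, as were Dusp13, Dusp18 and Dusp21. Dusp3 (-0.01), Dusp11 (0.00), Dusp12 (-0.07), Dusp14 (0.14), Dusp19 (-0.14), Dusp23 (0.03), Dusp26 (0.18) and Dusp28 (-0.11) were not called.

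By the RefSeq table of GRCm38.p6, the 5 called members lie on chromosomes 7, 11 and 13. Casp8 lies on chromosome 1, Map3k7 on 4 and Ripk3 on 14. The part of chromosomal position in the calls was not tested.

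Single probe sets showed differences that the gene values hide. Of the 897 probe sets of the members, 5 (0.557%) passed the limma test over all 206316 probe sets, of which 1.64% passed. The clearest was 1 of 12 probe sets of Map3k11, the kinase MLK3. It read 8.65, 9.00, 8.87 and 9.24 in the Tak1/Rip3 livers and 6.39, 6.71, 6.28 and 6.57 in the Tak1/Casp8 livers, a difference of -2.45 ± 0.16 SE (4 mice per group, limma adjusted p = 0.000953). The other 11 probe sets of Map3k11 differed by -0.20 to 0.12, and the gene as a whole by -0.05.

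In Map3k6, 1 probe set differed by 2.24 ± 0.22 SE (4 mice per group, limma adjusted p = 0.00377) at a dim level of 5.14 against 2.90, while the other 29 ran from -1.10 to 2.15. Single probe sets of Tab1 (-0.90), Map3k12 (-0.65) and Map3k1 (0.74) also passed. That of Map3k12 was dim in both groups (5.02 in the Tak1/Casp8 against 5.67 in the Tak1/Rip3 livers). That of Tab1 was dim in the Tak1/Casp8 livers (5.96 against 6.86). In Map3k1 the other 21 ran from -0.03 to 1.23, and in Map3k12 the other 18 ran from -0.56 to 0.73. Their positions in the transcripts were not analysed here.

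**Figure D4:**
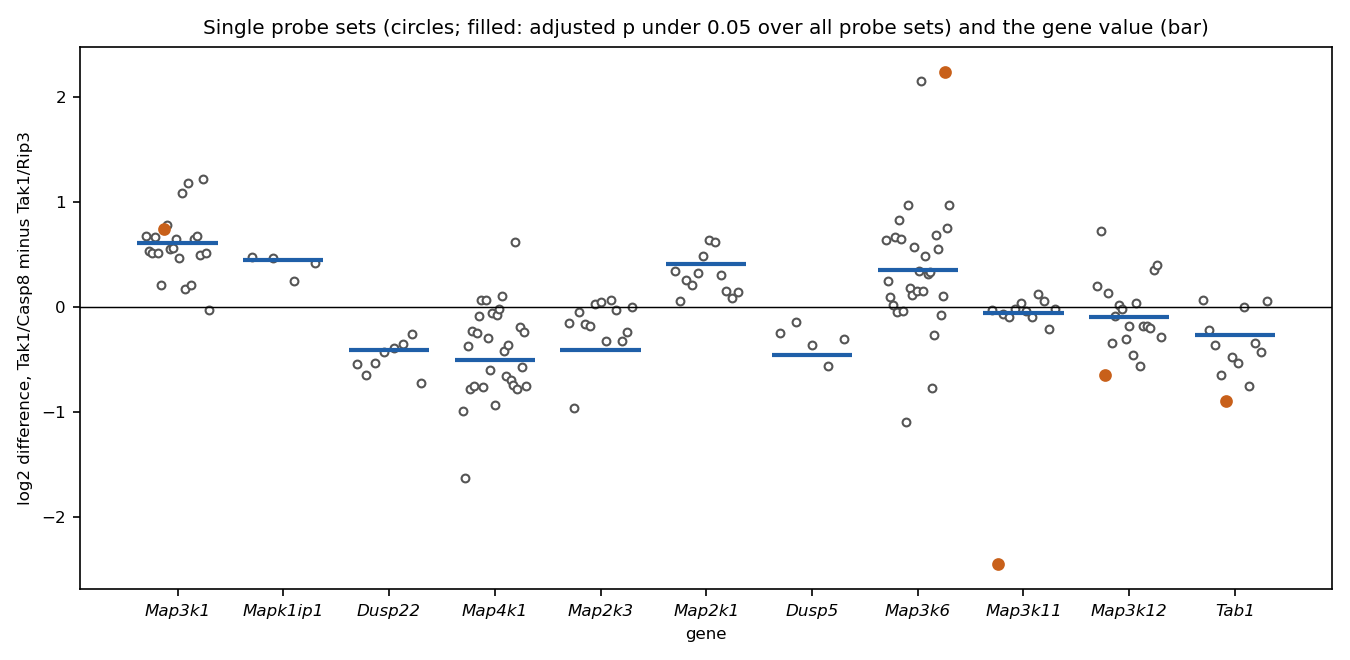
Log2 difference (Tak1/Casp8 minus Tak1/Rip3, vertical axis) of every probe set of 11 members, as circles, with the value of the gene as a blue bar. Filled circles passed the limma test over all probe sets; the probe set of Map3k11 at -2.45 lies far from the others of that gene, and the bar of Map2k3 lies below most of its circles.

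Genes around the cascade, outside the members, gave shares near those of the whole array. Of 75 measured genes in 5 lists of the pathway, 4 (5.33%, against 6.69% of all genes) passed the limma test, 3 higher and 1 lower. Their median difference was 0.00 and its median size 0.135, against 0.141 over all genes. In the RAS and RAF module 1 of 18 passed: Rras, a small GTPase related to RAS, was 1.59-fold higher (0.67 ± 0.10 SE with 4 mice per group, limma adjusted p = 0.00522). No TAK1-linked adaptor, GADD45 gene or stress kinase scaffold passed in limma, of 12 measured, and 2 (16.7%, against 21.1% of all genes) had an unadjusted p under 0.05. Among 19 kinases and transcription factors downstream, the AP-1 subunit gene Fos was higher (0.43 ± 0.09, limma adjusted p = 0.0204), while its partner Jun differed by -0.14 and Jund by -0.03. The Fos call was lost in 6 of the 18 alternative settings. Its brightest probe set gave a difference of 0.04 (adjusted p = 0.883) and its brighter ones gave 0.19 (0.232). In 4 fits that each left out 1 array, namely replicates 1 and 3 of Tak1/Rip3 and replicates 1 and 2 of Tak1/Casp8, it stayed at 0.39 to 0.42 (0.0559 to 0.0674).

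Transcripts known to follow ERK activity gave 1 call in 16 (6.25%, against 6.69% of all genes). Of the 16, 12 were on the lower and 4 on the higher side, a less even split than the 9272 and 10288 of all genes. The mean level of the 16 was 7.97 to 8.14 in the Tak1/Casp8 and 8.12 to 8.28 in the Tak1/Rip3 livers. Differences of 1.5-fold or more were seen in 2 of them (12.5%, against 5.41% of all genes), on opposite sides. Cyclin D1 (Ccnd1) was at 11.50, 11.47, 11.43 and 11.52 in the Tak1/Rip3 livers and at 10.06, 10.46, 9.47 and 10.78 in the Tak1/Casp8 livers, 2.44-fold lower (-1.28 ± 0.23 SE with 4 mice per group, limma adjusted p = 0.00990). The genes of dividing cells named above fell in the same livers, and their part was not tested. The ERK feedback inhibitors of the Sprouty family did not pass (Spry1 -0.35, Spry2 -0.04, Spry4 -0.23), and neither did Egr1 (-0.07), Etv4 (0.19) or Etv5 (-0.30). Spry1 (limma adjusted p = 0.0782) depended on the settings. It passed with the mean over probe sets, the brighter and the centred probe sets, the 30th percentile filter and array weights. The largest uncalled differences of the list were those of the immediate early gene Ier3 (0.60, limma adjusted p = 0.110) and of Etv1 (-0.54, limma adjusted p = 0.405). Ier3 passed with the mean over probe sets, the brightest, the brighter and the centred probe sets. Of 10 other phosphatases that act on MAP kinases, Ppm1b, a serine and threonine phosphatase known to act on TAK1, was 1.496-fold higher (0.58 ± 0.10, limma adjusted p = 0.00756). With its brighter probe sets Ppm1b differed by -0.11 and with its brightest by 0.29, so its direction depended on the probe sets used.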

How the data were processed

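Liver RNA of 8 mice, 4 per group by the genotype label, was hybridised to 1 Affymetrix array each. The deposited values are log2 intensities per probe set. The submitters' processing notes give RMA as the authors' normalisation, without a version. RMA aligns the arrays (their medians here run from 8.058 to 8.158), which can hide a change common to most genes, and it compresses differences near background. Precision is limited by the number of arrays.

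Of 223771 probe sets 206316 had 1 symbol in the platform annotation and were used, 3734 had several (4 of them with a member) and 13721 had none. Old symbols, 2571 in all, were updated through a RefSeq table of GRCm38.p6, which also gave chromosomes. Genes were tested with limma 3.58.1 (lmFit and eBayes, group only, two-sided) in R 4.3.3, with Benjamini-Hochberg adjustment over 19560 genes and calls under 0.05. The test was checked on simulated data. Figures used matplotlib 3.10.9.

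The members, lists and alternatives were chosen with earlier results of these data known. Named were called members, the 3 with the smallest p per role, core kinases and phosphatases, and called genes of the other lists; further members and list genes were named after their values were seen. Alternatives were other normalisations, summaries, a 30th percentile filter, eBayes options, array weights, thresholds and omitted arrays. Omission of both least correlated arrays and the centring of probe sets were added after seeing the data. The replicate numbers only name arrays.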

Additional observations from a re-analysis of the deposited data

Results flagged for a closer look

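In 4 of 88 groups of 4 values of the named genes, 1 array lay far from the other 3 (by Dixon's criterion at the 95% level, which chance alone passes in about 1 of 20 groups). Dusp6 was at 9.57 in Tak1/Casp8 replicate 3, against 10.13 to 10.24 in the other 3. Map3k8 was at 8.37 in Tak1/Casp8 replicate 1, against 8.14 to 8.16. Tab1 was at 8.16 in Tak1/Casp8 replicate 3, against 7.65 to 7.73. Ripk3 was at 6.36 in Tak1/Rip3 replicate 1, against 7.04 to 7.18.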

How the results depend on the processing

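The count of 5 called members (2 higher, 3 lower) was 2 with the brightest probe set, 8 with the 30th percentile filter (60 members left), 9 with array weights, 8 with centred probe sets and 10 at an adjusted p under 0.10, where the share of all genes called was 3.88%, 11.4%, 10.0%, 10.1% and 10.9%. Quantile normalisation and the shift to 1 median each called 4 higher and 2 lower, so the balance of directions depended on the scaling. Omission of 1 array gave 1 to 6 calls, while 3.61% to 6.89% of all genes were called. It left Mapk1ip1 alone without Tak1/Rip3 replicate 1 (3.61% of all genes), Map3k1 alone without Tak1/Rip3 replicate 4 (3.77%), and both without Tak1/Casp8 replicate 1, 2 or 3 (3.91% to 4.86%), and gave 6 without Tak1/Rip3 replicate 2 (6.58%). Omission of both least correlated arrays gave 7 (7.44% of all genes), and membership by current symbols 5 (6.69%). The 4 called genes of the other lists were 7 with the mean over probe sets, where 9.22% of all genes passed. They were 7 with centred probe sets (10.1%) and 3 to 5 without 1 array (3.61% to 6.89%). Ppm1b turned to -0.11 with the brighter probe sets and Ripk3 to -0.036 with the brightest, both without passing. Of 32 named members that were not called, 5 passed in some setting and 18 changed sign in some setting without passing. No paired analysis was possible because the labels tie no sample of one group to a sample of the other. Of the 69 members, 8 were dim in both groups, where differences are compressed. Causes of these changes were not tested.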

Other observations

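Membership by current instead of platform symbols dropped Tab1, Tab2 and Tab3 and added 4 genes, none of them called. These were the MAP3 kinases Map3k19 (0.21 ± 0.11 SE with 4 mice per group, limma adjusted p = 0.300) and Map3k20, known as ZAK, a sensor of stalled ribosomes (-0.14 ± 0.11, limma adjusted p = 0.497), with Map3k7cl (-0.07) and the antisense gene Map2k3os (0.21, 2 probe sets).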
